A study of Homo sapiens with 6 samples.

Results

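Integrin and laminin transcripts were measured with 95 probe sets of 35 genes, of 41091 named probe sets and 19775 genes tested in all. A probe set is the group of array probes that reports 1 transcript. Members were the probe sets that the platform table gives a single symbol of an integrin alpha or beta chain (72 probe sets, 25 genes) or of a laminin alpha, beta or gamma chain (23 probe sets, 10 genes). ITGBL1, whose product is no integrin chain, falls outside that rule. ITGB6 and LAMA3 had no probe set with a single symbol and were not analysed here.

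The 6 Affymetrix HG-U133 Plus 2.0 arrays held 3 of 10A/143B cybrids and 3 of MDA-MB-468 cybrids. A cybrid is a cell made by fusing an enucleated cell, which brings its mitochondria, with a cell that has lost its mitochondrial DNA. Both cybrids had the nucleus of 143B p0, a human osteosarcoma line that lacks thymidine kinase and has no mitochondrial DNA, and both were selected in bromodeoxyuridine without uridine. In 10A/143B the mitochondria came from MCF10A, a non-tumorigenic human breast epithelial line, and in the other from MDA-MB-468, a human breast cancer line, and these cells are called MDA-MB-468 cybrids; the donors had been enucleated with actinomycin D. The comparison asks what the origin of the mitochondria, a non-cancerous or a cancer cell, does to nuclear gene expression in one tumour background. The labels name the donor as the cell line and do not say whether a cybrid was 1 clone or a pool, so that mitochondria and clone cannot be told apart. The labels state that RNA was extracted in triplicate, and nothing says that the extractions came from separate cultures. Replicates 2 and 3 of each cybrid were near duplicates (on the log2 scale the SD of their differences was 0.08 in 10A/143B cybrids and 0.09 in MDA-MB-468 cybrids, against 0.26 to 0.28 for differences from replicate 1) and were averaged to 1 sample, so each test set 2 samples of 10A/143B against 2 of MDA-MB-468 cybrids, and p-values measure the spread between these samples, which may be technical.

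Integrins are receptors of 1 alpha and 1 beta chain that hold cells to the extracellular matrix and, inside the cell, to actin through talin and other adaptors. The pair of chains sets the ligand: some pairs bind collagens, some laminins, some the RGD motif of fibronectin and vitronectin, and some bind other cells. Laminins are trimers of an alpha, a beta and a gamma chain that assemble into basement membranes. The beta chain ITGB1 pairs with many alpha chains and ITGAV with several beta chains, so a chain's transcript level does not by itself give the level of a receptor. In osteosarcoma cells integrins serve attachment to bone matrix and migration.

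RefSeq held a promoter window, 250 bases before to 50 after the transcript start, for 24 of the 35 member genes and for 9 of the 11 that passed the test for a difference between the cybrids. The windows (GRCh38.p14) of 4 of them are shown: those of the 3 genes that kept their call under every alternative setting tried, and that of ITGA5, the fibronectin receptor chain that was lower. Each is written 5′ to 3′ on the gene's strand, and capitals mark a GC box (GGGCGG) or an AP-1 motif (TGANTCA), searched on both strands.
ITGA4, chr2:181457136-181457435, plus strand: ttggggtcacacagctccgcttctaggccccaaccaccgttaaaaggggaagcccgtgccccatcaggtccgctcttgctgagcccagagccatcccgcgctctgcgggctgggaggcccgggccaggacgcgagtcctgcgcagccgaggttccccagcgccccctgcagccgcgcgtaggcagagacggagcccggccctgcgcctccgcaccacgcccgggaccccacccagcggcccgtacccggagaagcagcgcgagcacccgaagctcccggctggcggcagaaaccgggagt
ITGAV, chr2:186589806-186590105, plus strand, the first of 2 windows listed: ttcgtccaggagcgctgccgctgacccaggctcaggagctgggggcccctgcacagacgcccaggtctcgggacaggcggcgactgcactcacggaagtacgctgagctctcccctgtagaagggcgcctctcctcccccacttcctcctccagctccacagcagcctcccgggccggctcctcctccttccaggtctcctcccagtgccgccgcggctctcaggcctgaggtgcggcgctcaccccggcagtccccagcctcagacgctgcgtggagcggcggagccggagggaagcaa
ITGA2, chr5:52989102-52989401, plus strand: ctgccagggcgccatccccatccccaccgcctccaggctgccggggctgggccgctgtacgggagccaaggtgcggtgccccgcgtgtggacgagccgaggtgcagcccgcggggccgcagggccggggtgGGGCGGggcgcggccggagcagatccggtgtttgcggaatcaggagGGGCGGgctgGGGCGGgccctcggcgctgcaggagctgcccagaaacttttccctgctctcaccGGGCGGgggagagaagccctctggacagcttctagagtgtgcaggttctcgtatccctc
ITGA5, chr12:54419217-54419516, minus strand: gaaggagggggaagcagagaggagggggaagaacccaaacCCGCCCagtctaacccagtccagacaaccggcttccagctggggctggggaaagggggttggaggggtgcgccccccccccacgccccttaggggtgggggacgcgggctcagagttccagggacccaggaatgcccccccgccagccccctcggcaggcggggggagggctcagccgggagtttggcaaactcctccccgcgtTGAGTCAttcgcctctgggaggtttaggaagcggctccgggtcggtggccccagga
The ITGA4 and ITGAV windows held neither motif and no TATA box (TATAAA), whereas the ITGA2 window held 4 GC boxes, which began 119, 73, 63 and 9 bases before the start. In the ITGA5 window the AP-1 motif began 6 bases before the start and the GC box 210 bases before it. Of 35116 RefSeq windows, 7.71% held the AP-1 letters, 45.0% the GC box and 11.5% the TATA box. Among the 9 windows of genes that passed, 1 held the AP-1 letters, 5 the GC box and 1 the TATA box. A match is a run of letters and was not tested as a binding site.

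Integrin chains differed between the cybrids in both directions. Of the 10 laminin chains 1 passed, as lower in 10A/143B (10.0%, against 8.9% of all genes). None passed as higher, against 13.8% of all genes. Of the 35 genes, 7 were higher in 10A/143B (ITGA4, ITGAV, ITGA2, ITGB8, ITGA10, ITGB1 and ITGA6), 4 were lower (ITGB2, ITGA5, LAMA1 and ITGAE), and 24 passed in neither direction. These counts are 20% and 11.4% of the members, against 13.8% of all 19775 genes called higher and 8.9% called lower. Among the 25 integrin genes 28.0% were higher and 12.0% lower, and among the 10 laminin genes 0% and 10.0%. With dim genes left out, 8 of 29 members were higher and 4 lower, against 22.8% and 15.7% of 13121 genes. The median difference of the members was -0.04 (log2), and that of all genes was -0.02. The test was limma's moderated fit of log2(intensity + 16), with a gene called at an adjusted p below 0.05 (Benjamini-Hochberg over all 19775 genes), and each gene was read from the brightest of its probe sets on average. Each difference is the value of 10A/143B minus that of MDA-MB-468 cybrids on that log2 scale, with the fit's standard error (SE), and folds on it understate the change of dim genes. On 17 of the 35 genes the 3 arrays of one cybrid did not overlap the 3 of the other, among them all 11 called genes, a share of the members close to the 45.8% over all genes.

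**Figure D1:**
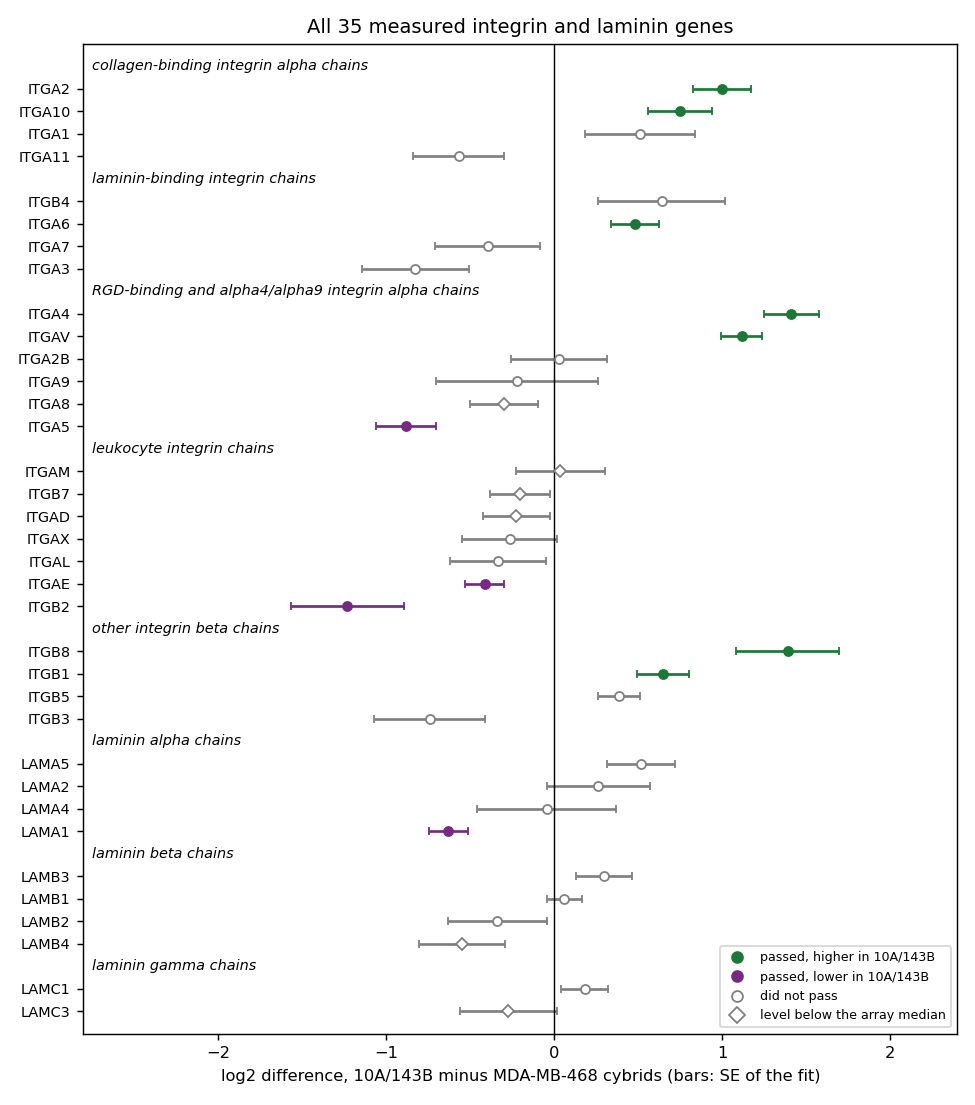
Difference of each of the 35 integrin and laminin genes (log2, 10A/143B minus MDA-MB-468 cybrids, one gene a line), grouped by role, with bars for the SE of the fit, filled points for genes that passed the test and diamonds for genes below the median level. The 7 genes higher in 10A/143B are all integrin chains, and among the 10 laminin chains LAMA1, at -0.63, is the 1 filled point.

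The collagen receptor chains ITGA2 and ITGA10 were higher in 10A/143B, and the other 2 of the 4 collagen-binding alpha chains did not pass; the median of the 4 was 0.63. ITGA2, the alpha chain of a main collagen receptor of epithelia and platelets, had intensities of 1046, 787 and 729 on the 10A/143B arrays (replicates 1, 2 and 3, as in every list of values here), against 484, 402 and 388 on the MDA-MB-468 cybrid arrays. Every 10A/143B array lay above every MDA-MB-468 cybrid array, and the difference was 1.00 ± 0.17 (2.00-fold, limma, adjusted p = 0.00505). ITGA10, a collagen receptor chain known from cartilage, read 207, 254 and 249 in 10A/143B, against 118, 133.4 and 150.1 in MDA-MB-468 cybrids, again without overlap (0.75 ± 0.19, 1.68-fold, adjusted p = 0.0261). This call was lost with quantile normalization (0.58, adjusted p = 0.0596), without the intensity trend (0.0521), and without replicate 1 of 10A/143B (0.88, adjusted p = 0.0583) or of MDA-MB-468 cybrids (0.63, adjusted p = 0.196).

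ITGA1, the collagen receptor chain of mesenchymal cells and the chromosomal neighbour of ITGA2, was dim, at 31.8, 58.5 and 43.4 in 10A/143B, against 17.8, 37.8 and 24.1 in MDA-MB-468 cybrids. The arrays overlapped, and the difference of 0.51 ± 0.33 did not pass (adjusted p = 0.349). ITGA11, a collagen receptor chain of fibroblasts, stood at 51.6, 50.6 and 56.9 in 10A/143B, against 97.0, 66.7 and 85.6 in MDA-MB-468 cybrids. Its arrays did not overlap, yet the difference of -0.57 ± 0.27 did not pass either (adjusted p = 0.194).

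Among the 4 laminin-binding chains 1 passed, ITGA6, which was higher in 10A/143B, and the median of the 4 was 0.04. The share higher was 25.0%, against 13.8% of all genes, and none was lower, against 8.9%. ITGA6 pairs with ITGB1 or with the hemidesmosomal ITGB4 and is a main laminin receptor chain of epithelia. Its intensities were 1184, 1510 and 1552 in 10A/143B, against 904, 1017 and 1024 in MDA-MB-468 cybrids. All 3 arrays of 10A/143B were higher, by 0.48 ± 0.14 (1.40-fold, limma, adjusted p = 0.0446). The value lay close to the threshold, and the call was lost under 10 of the alternative settings, among them the removal of the trend with gene length (0.28, adjusted p = 0.171) and leaving out replicate 1 of MDA-MB-468 cybrids (0.39, adjusted p = 0.30).

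ITGA3, the alpha chain of another laminin receptor, went the other way without passing: 126, 228 and 237 in 10A/143B, against 241, 437 and 396 in MDA-MB-468 cybrids. No array of one cybrid overlapped the other's, although replicate 1 of both cybrids lay well below replicates 2 and 3, and the difference was -0.82 ± 0.32 (adjusted p = 0.108). With the replicate number as a block, ITGA3 passed (adjusted p = 0.000612), as it did with the 6 arrays taken as separate samples (0.0429). ITGA7, a laminin receptor chain of muscle, had 40.0, 55.3 and 55.7 in 10A/143B, against 53.8, 94.4 and 73.0 in MDA-MB-468 cybrids (-0.40 ± 0.31, adjusted p = 0.458). ITGB4, the hemidesmosomal partner of ITGA6, read 36.3, 65.3 and 54.6 in 10A/143B, against 14.3, 36.8 and 38.6 in MDA-MB-468 cybrids (0.64 ± 0.38, adjusted p = 0.302). For both genes the arrays of the cybrids overlapped.

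ITGA4 and ITGAV, alpha chains whose genes lie on chromosome 2, had the smallest adjusted p-values of the 35 genes. Both were higher in 10A/143B, and ITGA5 was lower. ITGA4 binds the cell-surface ligand VCAM1 and fibronectin. Its intensities were 355, 311 and 326 in 10A/143B, against 113, 127 and 113 in MDA-MB-468 cybrids. The lowest 10A/143B array was more than 2 times the highest MDA-MB-468 cybrid array, and the difference of 1.41 ± 0.16 (2.66-fold) passed with an adjusted p of 0.000976 (limma). ITGAV, which with its several beta chains binds vitronectin and the latent form of TGF-beta, had 695, 724 and 704 in 10A/143B, against 333, 298 and 302 in MDA-MB-468 cybrids. The arrays of each cybrid lay close together and far from the other's (1.12 ± 0.12, 2.17-fold, adjusted p = 0.000772). Neither call was lost under any alternative.

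ITGA5, which with ITGB1 forms the classical fibronectin receptor, had intensities of 247, 304 and 296 in 10A/143B, against 440, 605 and 601 in MDA-MB-468 cybrids. Every 10A/143B array was below every MDA-MB-468 cybrid array, and the difference was -0.88 ± 0.18 (1.84-fold lower, limma, adjusted p = 0.01). The call was lost without replicate 1 of 10A/143B (-0.75, adjusted p = 0.0912) and without the intensity trend (0.0537). The 3 other alpha chains of this group did not pass, and the median of the 6 was -0.10. Of the 6, 33.3% were higher and 16.7% lower, against 13.8% and 8.9% of all genes. ITGA2B, the platelet fibrinogen receptor chain, read 30.1, 33.1 and 28.4 in 10A/143B, against 32.7, 30.9 and 22.6 in MDA-MB-468 cybrids (0.03 ± 0.28, adjusted p = 0.964). ITGA9, a receptor chain for tenascin-C, read 27.1, 15.7 and 24.9 in 10A/143B, against 62.3, 4.69 and 19.2 in MDA-MB-468 cybrids, where 1 array stood far above the other 2 (-0.22 ± 0.48, adjusted p = 0.812). ITGA8, a receptor chain for nephronectin, lay below the median level of all probe sets on average in both cybrids (-0.30 ± 0.20, adjusted p = 0.373).

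**Figure D2:**
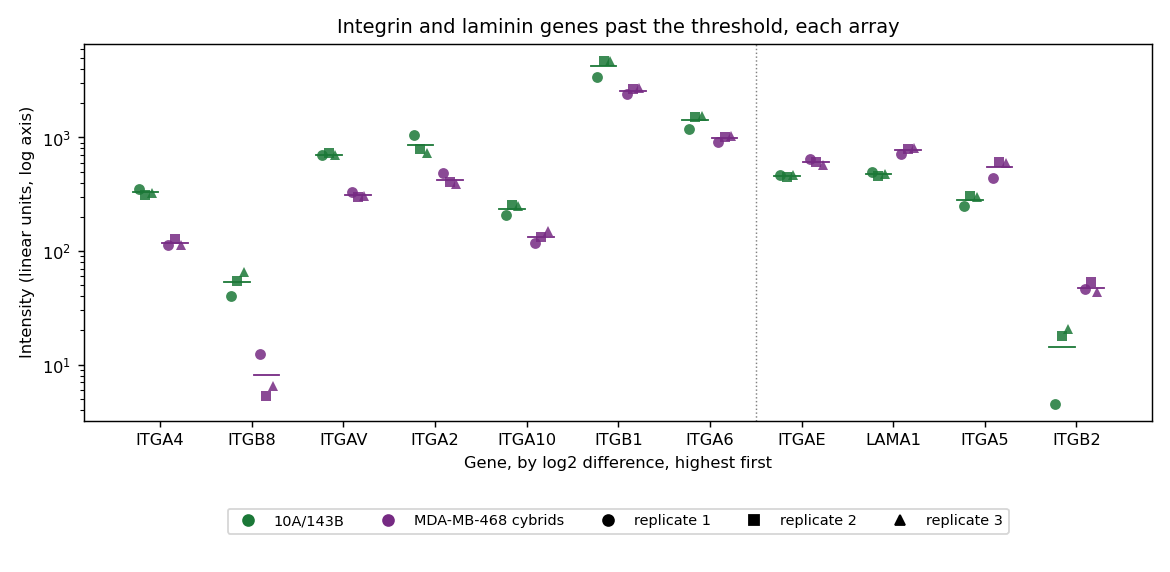
Intensity on each array (log axis, arbitrary units) of the 11 integrin and laminin genes that passed the test, 10A/143B beside MDA-MB-468 cybrids, with one point for each of the 3 arrays of a cybrid and a line at their mean. No gene of the 11 has points of one cybrid within the range of the other's, from the dim ITGB2 and ITGB8 to the bright ITGB1.

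Among the 7 chains known mainly from leukocytes, ITGB2 and ITGAE were lower in 10A/143B, 5 did not pass, and the median was -0.27. The lower chains are 28.6% of the 7, against 8.9% of all genes, and none was higher, against 13.8%. ITGB2, the shared beta chain of the leukocyte adhesion receptors, was dim, with 4.53, 17.9 and 20.7 in 10A/143B, against 46.2, 53.1 and 43.4 in MDA-MB-468 cybrids. No array overlapped, and the difference was -1.23 ± 0.34 (2.35-fold lower, limma, adjusted p = 0.0339). The call was lost when probe sets were left out whose suffix (_x_at or _s_at) marks probes shared with other transcripts (-0.38, adjusted p = 0.488). It was also lost with the mean of its probe sets (-0.69, adjusted p = 0.0743), with an offset of 1 (-2.19, adjusted p = 0.0521), and without replicate 1 of 10A/143B (-0.84, adjusted p = 0.145), replicate 2 of 10A/143B (-1.20, adjusted p = 0.0535) or replicate 1 of MDA-MB-468 cybrids (-1.25, adjusted p = 0.17).

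ITGAE, whose product on T cells binds the epithelial cadherin CDH1, had 465, 446 and 471 in 10A/143B, against 653, 609 and 568 in MDA-MB-468 cybrids. The difference was the smallest of those that passed (-0.41 ± 0.12, 1.33-fold lower, limma, adjusted p = 0.0395). It did not pass without the intensity trend (0.137), or without replicate 1 (0.104) or 2 (0.0516) of 10A/143B or replicate 1 (0.284) or 2 (0.0613) of MDA-MB-468 cybrids. Leukocyte markers were measured beside these chains: the summed intensity of 7 of 8 listed genes ran from 120 to 148.5 in 10A/143B, against 203.4 to 241.9 in MDA-MB-468 cybrids. None of the 7 passed (2 had an unadjusted p below 0.05, limma), none stood at the arrays' lowest value on every array, and the pan-leukocyte gene PTPRC read 17.4, 12.4 and 7.36 in 10A/143B, against 22.6, 7.21 and 7.84 in MDA-MB-468 cybrids. With the replicate block, LCP1 (-0.79, adjusted p = 0.0267) and CORO1A (-0.89, adjusted p = 0.0318) of that list passed as lower in 10A/143B; the part of such markers in the ITGB2 and ITGAE values was not tested. Both cybrids were cultured cells with the 143B nucleus, so these values are marker levels in bulk RNA and not counts of leukocytes.

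The other leukocyte chains were at low levels and did not separate the cybrids. ITGAL, the alpha chain of the receptor for ICAM1, had 19.7, 11.2 and 13.2 in 10A/143B, against 29.7, 28.4 and 11.6 in MDA-MB-468 cybrids (-0.33 ± 0.29, adjusted p = 0.498). ITGAX, a receptor chain of dendritic cells, had 54.6, 78.8 and 51.6 in 10A/143B, against 86.8, 64 and 62.7 in MDA-MB-468 cybrids (-0.27 ± 0.28, adjusted p = 0.594). ITGAM, ITGAD and ITGB7 lay below the median level, with differences of 0.04, -0.22 and -0.20.

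Of the 4 beta chains that are not leukocyte or hemidesmosomal, ITGB1 and ITGB8 were higher in 10A/143B, ITGB3 and ITGB5 did not pass, and the median was 0.52. ITGB1, the common partner of most collagen, laminin and fibronectin receptor chains, read 3397, 4673 and 4705 in 10A/143B, against 2419, 2647 and 2702 in MDA-MB-468 cybrids. The difference of 0.65 ± 0.15 (1.57-fold, limma, adjusted p = 0.0195) had no overlap of arrays and was smaller in replicate 1 than in the other 2. The call was lost without replicate 1 of MDA-MB-468 cybrids (0.57, adjusted p = 0.202), without the intensity trend (0.105) and with the mean of all 7 probe sets (0.33, adjusted p = 0.26). Of the 12 alpha chains that pair with ITGB1, 5 were higher in 10A/143B, 1 was lower and 6 passed in neither direction, with a median of 0.13. These are 41.7% and 8.33%, against 13.8% and 8.9% of all genes.

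ITGB8, a partner of ITGAV that activates latent TGF-beta, had 40.2, 54.6 and 65.3 in 10A/143B, against 12.4, 5.28 and 6.50 in MDA-MB-468 cybrids. The gene was dim in both and lowest in replicates 2 and 3 of MDA-MB-468 cybrids, and the difference was 1.39 ± 0.31 (2.62-fold, limma, adjusted p = 0.0141). It was lost with the mean of all 5 probe sets (0.40, adjusted p = 0.168) and without replicate 1 of MDA-MB-468 cybrids (1.58, adjusted p = 0.0909). ITGB5, the vitronectin receptor chain that also pairs with ITGAV, had 648, 739 and 765 in 10A/143B, against 509, 564 and 541 in MDA-MB-468 cybrids. All arrays of 10A/143B were higher, but the difference of 0.39 ± 0.12 missed the threshold (adjusted p = 0.0606), and it passed with the replicate block (adjusted p = 0.0139), with the 6 arrays as separate samples (0.00456) and with dim genes left out (0.0474). ITGB3, the beta chain of the platelet and osteoclast receptors, stood at 25.6, 33.4 and 27.3 in 10A/143B, against 75.6, 36.3 and 49.9 in MDA-MB-468 cybrids. No array overlapped, and the difference of -0.74 ± 0.33 did not pass (adjusted p = 0.165). The 4 measured beta chains that pair with ITGAV (ITGB1, ITGB3, ITGB5 and ITGB8) are the same 4 genes as the beta chains counted above. Their count, 2 higher and 2 in neither direction, is therefore the same result and not a separate one. Of all genes, 13.8% were called higher and 8.9% lower.

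LAMA1 was lower in 10A/143B and was the 1 laminin chain of 10 that passed; the median of the 10 was 0.01. LAMA1 encodes the alpha chain of the laminin of the embryo's earliest basement membranes. It had 498, 461 and 481 in 10A/143B, against 719, 798 and 803 in MDA-MB-468 cybrids. Every 10A/143B array was below every array of the other cybrid, and the difference was -0.63 ± 0.12 (1.55-fold lower, limma, adjusted p = 0.00655). The call was lost without the intensity trend (0.052).

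The other laminin alpha chains did not pass. LAMA5, the alpha chain of the most widespread laminins of adult tissue, read 154, 190.0 and 193 in 10A/143B, against 121, 122 and 99.0 in MDA-MB-468 cybrids. All 10A/143B arrays were higher, by 0.52 ± 0.20, which missed the threshold (adjusted p = 0.117) and passed with the 6 arrays as separate samples (0.00931). LAMA2, the laminin chain of muscle, had 41.4, 44.3 and 46.2 in 10A/143B, against 26.2, 41.1 and 42.5 in MDA-MB-468 cybrids (0.26 ± 0.31, adjusted p = 0.631). LAMA4, the laminin chain of vessel walls, had 42.2, 11.4 and 8.57 in 10A/143B, against 30.5, 13.4 and 24.6 in MDA-MB-468 cybrids (-0.04 ± 0.41, adjusted p = 0.961).

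None of the 6 laminin beta and gamma chains passed. LAMB1, the beta chain of most laminins, had 1479, 1552 and 1585 in 10A/143B, against 1389, 1510 and 1552 in MDA-MB-468 cybrids. The arrays overlapped, and the difference of 0.06 ± 0.10 had a 95% confidence interval of -0.18 to 0.30 (adjusted p = 0.751). LAMC1, the gamma chain of most laminins, had 867, 885 and 855 in 10A/143B, against 671, 898 and 843 in MDA-MB-468 cybrids, where replicate 1 stood lowest (0.18 ± 0.14, interval -0.14 to 0.50, adjusted p = 0.438). Another LAMC1 probe set passed as lower in 10A/143B. LAMB3, the beta chain of the laminin that anchors epithelia, had 630, 855 and 849 in 10A/143B, against 541, 657 and 648 in MDA-MB-468 cybrids. Its arrays overlapped through replicate 1 of 10A/143B, and the difference of 0.30 ± 0.17 did not pass (adjusted p = 0.275). LAMB2, known from the basement membranes of kidney and synapse, had 56.9, 53.1 and 57.3 in 10A/143B, against 60.1, 85.6 and 100.4 in MDA-MB-468 cybrids (-0.34 ± 0.29, adjusted p = 0.503). LAMB4 and LAMC3 lay below the median level, with differences of -0.55 and -0.27 that did not pass.

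Read by probe set, 12 of the 95 were higher in 10A/143B, 5 were lower and 78 passed in neither direction, against 11.7% of all 41091 probe sets called higher and 6.14% called lower; with the replicate block, 14 member probe sets were higher and 8 lower, against 15.0% and 9.23% of all probe sets. For ITGA4 and ITGA2 no probe set was below 0. ITGA4's 4 probe sets differed by 0.46 to 1.47, and 3 of them passed. The next in brightness after the one that stands for the gene, 205885_s_at, had 201, 134.4 and 118 in 10A/143B, against 114, 118 and 102 in MDA-MB-468 cybrids; its lowest 10A/143B array was level with the highest of the other cybrid, and it did not pass (0.46 ± 0.24, limma, adjusted p = 0.275). The dimmer 243366_s_at had 187, 186 and 176 in 10A/143B, against 50.2, 72.0 and 53.8 in MDA-MB-468 cybrids. Both ITGA2 probe sets passed, with differences of 1.00 and 0.98.

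Other genes had probe sets on both sides of 0. The 3 brightest of ITGB1's 7 probe sets passed as higher, at 0.65, 0.54 and 0.70, while 4 dimmer ones did not pass. Of these 4, 215878_at was lower on every 10A/143B array (1.06, 1.495 and 1.00, against 5.03, 8.94 and 24.6 in MDA-MB-468 cybrids, a difference of -0.59, adjusted p = 0.111), and 216178_x_at differed by -0.15. LAMC1's second probe set, 200770_s_at, had 422, 322 and 326 in 10A/143B, against 553, 671 and 639 in MDA-MB-468 cybrids. Its arrays did not overlap, and it was lower in 10A/143B (-0.68 ± 0.17, limma, adjusted p = 0.0317 over all probe sets), whereas the brighter 200771_at differed by 0.18. ITGB5 held a probe set, 201124_at, that was higher in 10A/143B (182, 241 and 254, against 103.3, 95.01 and 102.5 in MDA-MB-468 cybrids, a difference of 0.97 ± 0.21, adjusted p = 0.0182). Another ITGB5 probe set, 214021_x_at, was dim and read 12.0, 19.7 and 17.5 in 10A/143B, against 38.6, 67.2 and 60.6 in MDA-MB-468 cybrids (-1.09 ± 0.33, adjusted p = 0.0627). For ITGB4 the dim 230704_s_at passed as lower in 10A/143B (2.11, 2.53 and 1.96, against 29.9, 22.9 and 13.3 in MDA-MB-468 cybrids, adjusted p = 0.0173), while the brightest ITGB4 probe set differed by 0.64 in the other direction. The ITGA6 and ITGAE probe sets that passed among genes had adjusted p-values of 0.0681 and 0.065 over all probe sets.

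**Figure D3:**
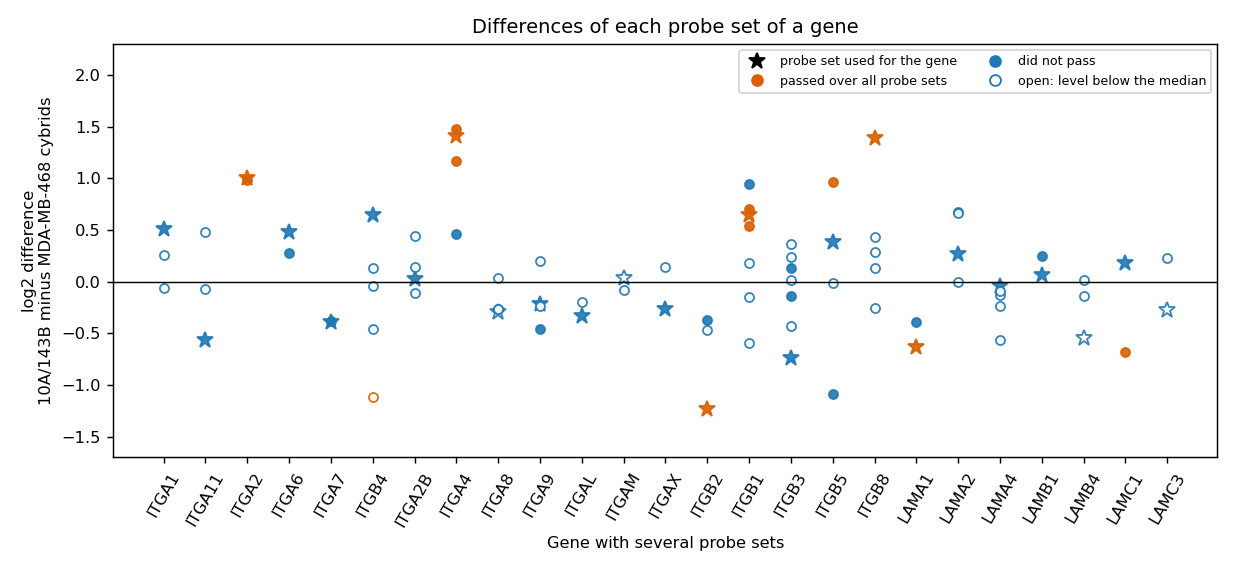
Difference (log2, 10A/143B minus MDA-MB-468 cybrids) of each probe set of the 25 members with several, by gene, with orange for those that passed over all 41091, a star for the one that stands for its gene and open points for those below the median level. The probe sets of ITGA4 and ITGA2 lie together above 0, and those of LAMC1, ITGB4 and ITGB5 lie on both sides of it.

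The difference between the cybrids could also be taken within replicate 1 and within the averaged replicates 2 and 3. For all 11 called genes it had the same sign in both. It was 1.52 and 1.30 for ITGA4 in replicate 1 and in replicates 2 and 3, 1.03 and 1.21 for ITGAV, and 1.09 and 0.91 for ITGA2. The least even were ITGB2, with -1.60 and -0.86, and ITGB8, with 0.99 and 1.79. With the replicate number as a block, 8 member genes were higher and 5 lower, since ITGB5 and ITGA3 joined the 11, and over all genes the shares rose as well, to 17.8% higher and 13.8% lower.

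**Figure D4:**
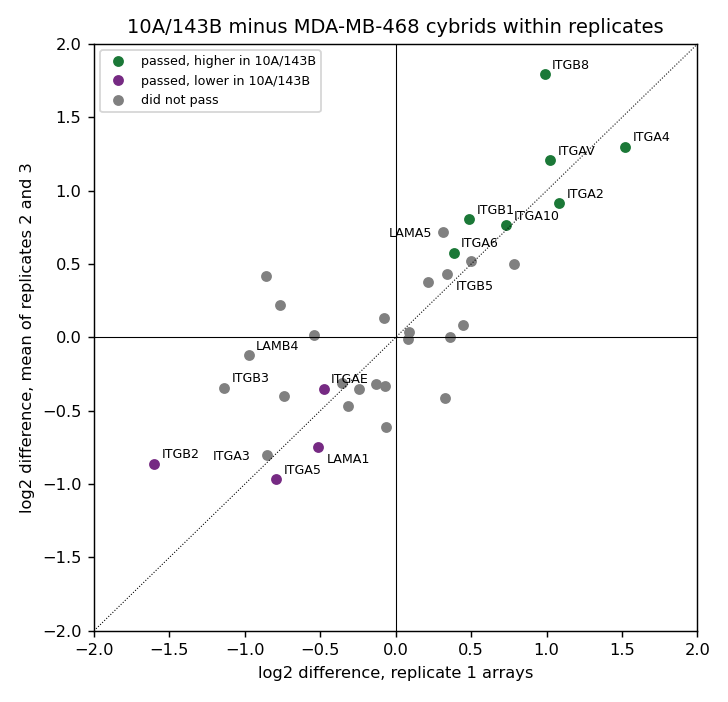
Difference between 10A/143B and MDA-MB-468 cybrids (log2) within replicate 1 (x axis) and within the mean of replicates 2 and 3 (y axis) for each of the 35 genes, with equal values on the dotted line. All 11 called genes lie in the quadrants where both differences have one sign, ITGA4 at 1.52 and 1.30 and ITGB2 at -1.60 and -0.86.

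Integrin and laminin genes are long, and gene length moved with the comparison. The median length of the 35 member genes was 79.1 kb, against 24.8 kb over all genes, and 22 of the 35 were among the longest 30% of genes. In that longest 30% the median difference of all genes was 0.15, with 25.0% called higher in 10A/143B and 5.41% lower; in the shortest 30% the median was -0.10. After the trend with length was removed from each array, 10 of the 11 calls held and ITGA6 lost its own. Among the genes next to some called members, more were higher than lower: of the 20 nearest measured genes of ITGA4, 8 passed as higher in 10A/143B and none as lower (median 0.30), of those of ITGAV 9 and 1 (median 0.38), and of those of ITGB1 6 and none (median 0.34), by the same limma fit. The ITGA4 and ITGAV neighbours share 9 genes, 5 of them called higher, so these are not separate counts. LAMA1, which was lower, also lay among more genes higher than lower (6 and 1, median 0.11), and next to ITGA2 the counts were 4 and 4. Next to ITGA6 they were 5 and 3, to ITGB2 3 and 2, and to ITGB8 2 and 1. For ITGAE they were 2 and 0, for ITGA5 1 and 1, and for ITGA10 2 and 3. Each count is of 20 genes, and over all genes 13.8% were higher and 8.9% lower. The median over chromosome 2 was 0.02. The part of gene length and position in the members' values was not tested beyond these figures.

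Measures of the arrays and markers of cell type gave the following values beside these results. The 10A/143B arrays had median intensities of 21.7 to 24.4 and the MDA-MB-468 cybrid arrays of 20.4 to 21.4. The signal at the 3′ end of ACTB over that at its 5′ end, which tells of RNA breakdown, ran from 1.59 to 1.92 in 10A/143B, against 1.18 to 1.67 in MDA-MB-468 cybrids, with replicate 1 of MDA-MB-468 cybrids the lowest. The same ratio for GAPDH ran from 0.933 to 1.01 in 10A/143B, against 0.966 to 1.07 in MDA-MB-468 cybrids. The osteoblast markers summed over 8 of 9 genes to 1230 to 1267 in 10A/143B, against 1651 to 1710 in MDA-MB-468 cybrids. Of the 8, 1 was higher (SPP1, 12.5%) and 2 were lower (DLX5 and MSX2, 25.0%), against 13.8% and 8.9% of all genes. With the replicate block ALPL was lower too (-0.87, limma, adjusted p = 0.0455). MSX2 (-1.47) lost its call with the mean of its probe sets (-0.50, adjusted p = 0.208) and stood at 0.12 without _x_at or _s_at probe sets (adjusted p = 0.863), SPP1 (0.65) lost its own under 6 alternatives, and neither DLX5 nor SPP1 could be read without such probe sets. RUNX2, an osteoblast factor, lay far above the median intensity, at 534, 519 and 488 in 10A/143B, against 626, 592 and 596 in MDA-MB-468 cybrids. SP7 and IBSP of that list lay below the median level in both cybrids. SP7 had 6.73, 7.26 and 14.5 in 10A/143B, against 16.9, 6.06 and 12.1 in MDA-MB-468 cybrids. IBSP had 8.46, 11.5 and 8.40 in 10A/143B, against 29.2, 14.8 and 14.8 in MDA-MB-468 cybrids. Basal epithelial markers summed over 5 of 9 genes to 108.5 to 128.6 in 10A/143B, against 81.5 to 115.9 in MDA-MB-468 cybrids. None of the 5 passed, also at an unadjusted p below 0.05 (limma). EPCAM and DSG3 lay above the median level, and KRT14, CDH1 and KRT5 below it. EPCAM had 53.1, 53.8 and 58.9 in 10A/143B, against 40.2, 32.9 and 37.3 in MDA-MB-468 cybrids (0.40, limma, adjusted p = 0.40). KRT5 stood at the lowest value on every 10A/143B array. No marker of platelets (summed intensities of 75.2 to 78.7 in 10A/143B, against 76.6 to 140.4 in MDA-MB-468 cybrids) or endothelium (169 to 208.4 in 10A/143B, against 111 to 170.0 in MDA-MB-468 cybrids) passed, 5 genes each, nor did any of these 10 have an unadjusted p below 0.05. The part of these differences in the integrin and laminin values was not tested.

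Of 17 measured ligands of integrins, 2 were higher in 10A/143B, 7 lower and 8 in neither direction, with a median of -0.64 against -0.02 over all genes, of which 13.8% were called higher and 8.9% lower. With the replicate block ICAM2, a ligand of leukocyte integrins, was lower as well (-0.88, adjusted p = 0.0177), against 13.8% of all genes lower in that fit. Of the 7 lower calls, 4 were lost without _x_at or _s_at probe sets. FN1, the fibronectin bound by ITGA5 and ITGA4 receptors, had 161, 162 and 155 in 10A/143B, against 849, 855 and 873 in MDA-MB-468 cybrids. The cybrids were more than 4 times apart on every array, a difference of -2.31 ± 0.12 (4.96-fold lower, limma, adjusted p = 0.000201). The matricellular THBS1 fell as well (-2.16 ± 0.16, adjusted p = 0.000252), as did TGFB1, whose latent form binds ITGAV receptors (-1.61 ± 0.24, adjusted p = 0.00243). These 3 calls and that of MFGE8 (-0.96, adjusted p = 0.0222) rest on probe sets with the suffix _x_at or _s_at. With these left out, each gene was read from a probe set that was dimmer on average. Without such probe sets the differences were -0.08 for FN1 (adjusted p = 0.893), -0.30 for THBS1 (adjusted p = 0.513), -0.23 for TGFB1 (adjusted p = 0.50) and -0.20 for MFGE8 (adjusted p = 0.483). NPNT, nephronectin, a ligand of ITGA8 receptors, was higher (1.31 ± 0.30, adjusted p = 0.0159), a call lost with the mean of its probe sets (0.61, adjusted p = 0.113) and without replicate 1 of 10A/143B (1.16, adjusted p = 0.0729) or of MDA-MB-468 cybrids (1.21, adjusted p = 0.18).

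Of 29 measured linkers between integrins and actin, 3 were higher in 10A/143B, 6 lower and 20 in neither direction (median -0.29). These are 10.3% and 20.7%, against 13.8% and 8.9% of all genes. With the replicate block 5 passed as higher and 10 as lower, against 17.8% and 13.8% of all genes. TGFB1I1, the focal adhesion adaptor Hic-5, had 402, 269 and 278 in 10A/143B, against 976, 949 and 1024 in MDA-MB-468 cybrids (-1.52 ± 0.17, limma, adjusted p = 0.000933). VASP, which promotes actin filament growth at adhesions, was lower by a like amount (-1.50 ± 0.21, adjusted p = 0.00186), and neither call was lost under any alternative. The parvins, which tie integrin-linked kinase to actin, went opposite ways: PARVA was lower (-1.48 ± 0.15, adjusted p = 0.000677) and PARVB higher (1.36 ± 0.37, adjusted p = 0.0344). PARVA lost its call with the mean of its probe sets (-0.55, adjusted p = 0.0692) and without _x_at or _s_at probe sets (-0.27, adjusted p = 0.635). PARVB lost its call under 7 alternatives and had the opposite sign with the mean of its probe sets (-0.19, adjusted p = 0.603).

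Of 15 basement membrane partners of laminins, 1 was lower (6.67%, against 8.9% of all genes) and 14 passed in neither direction (median -0.10). With the replicate block 5 were lower, against 13.8% of all genes. The 1 lower without the block was NID1, nidogen, which links laminin to collagen IV networks. It had 534, 465 and 446 in 10A/143B, against 771, 792 and 815 in MDA-MB-468 cybrids (-0.66 ± 0.12, limma, adjusted p = 0.00675). Its call was lost without replicate 1 of MDA-MB-468 cybrids (-0.69, adjusted p = 0.0599) and without the intensity trend (0.0528). Of 11 other matrix receptors and hemidesmosome genes, 3 passed as higher (27.3%), 3 as lower (27.3%) and 5 in neither direction, with a median of -0.31. Of all genes, 13.8% passed as higher and 8.9% as lower. With the block 4 passed as higher and 6 as lower, against 17.8% and 13.8% of all genes. DST, a hemidesmosomal linker (1.38 ± 0.18, adjusted p = 0.00141), and DDR2, a receptor kinase for collagen (1.21 ± 0.19, adjusted p = 0.00309), were higher in 10A/143B, while the heparan sulfate proteoglycans SDC2 (-1.29 ± 0.13, adjusted p = 0.000587) and SDC1 (-0.75 ± 0.12, adjusted p = 0.00308) were lower. With the mean of all probe sets neither DST (0.56, adjusted p = 0.108) nor DDR2 (0.22, adjusted p = 0.272) passed, and DST did not pass without _x_at or _s_at probe sets (0.96, adjusted p = 0.0735).

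**Figure D5:**
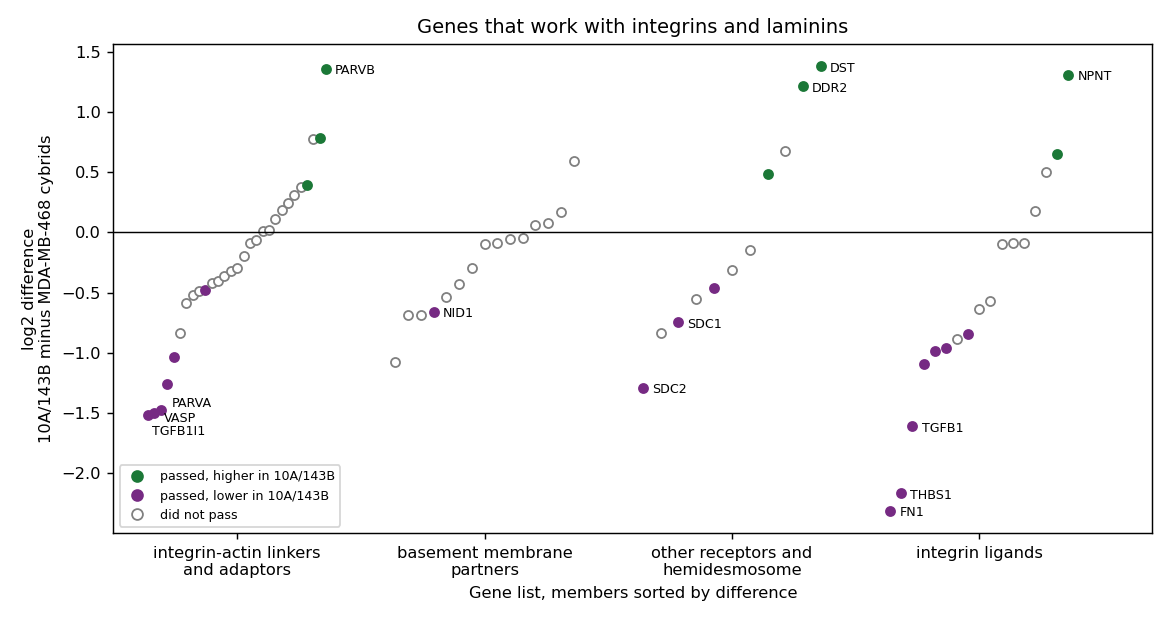
Difference (log2, 10A/143B minus MDA-MB-468 cybrids) of each measured gene of 4 lists of integrin and laminin partners, sorted within its list, with filled points for genes that passed the test. FN1, at -2.31, is the lowest, and 7 of the 17 ligands passed as lower in 10A/143B, against 1 of 15 basement membrane partners and 8.9% of all genes.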

How the data were processed

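The members and the gene lists were chosen with earlier results of these data known. Each probe set has 1 deposited intensity an array, on a linear scale. How the authors summarised probes, corrected background and scaled arrays is not given in the sources used here. The intensities ran from 1 to 13124.7 over 54675 probe sets, 1461 to 1566 of an array at the lowest value, and no detection calls were used, so a low value could not be called background. Source names gave each array's group and replicate number, which differ from the numbers in the titles; array files name no genome build, and the RefSeq gene table (GRCh38.p14) served for names, chromosome names, neighbours and lengths. Of the probe sets in the platform table, 41097 had 1 symbol and 1801 several, which were not named; 41037 of the 41091 tested were matched to RefSeq by Entrez identifier.

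Values were used without further normalization as log2(intensity + 16), and differences were fitted in R 4.3.3 by lmFit and trended eBayes of limma 3.58.1 over all 19775 genes, or all 41091 probe sets, with Benjamini-Hochberg adjustment at 0.05. Averaging replicates 2 and 3 left 2 residual degrees of freedom, 7.77 after moderation, and precision is limited by how few arrays there are. The fit was tested on simulated data.

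Deviations from the group means of arrays with the same replicate number correlated at 0.27, 0.213 and 0.213 for replicates 1, 2 and 3 (over 8172 probe sets, those above 8 in mean log2). Deviations within a group sum to 0 and replicates 2 and 3 were near duplicates, so these 3 values are not independent. They cannot show that replicate 2 pairs with 2 or 3 with 3. The numbers were taken as pairing the arrays, and the fit with the replicate number as a block is given where it changed a call. The alternatives were the 6 arrays as separate samples, the block, offsets of 1 and 64, quantile normalization, median centring, a level filter, no intensity trend, all probe sets of a gene averaged, no _x_at or _s_at probe sets, removal of the length trend, and each array left out. Leaving out replicate 1 of a cybrid left 1 sample of it after averaging. Fewer of all genes passed in those fits, so a call lost there does not by itself tell of its gene. Every member past the threshold or at or above the median level (5.24, log2) is given by array, and up to 4 called genes of each partner list with the largest change are named.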

Additional observations from a re-analysis of the deposited data

How the results depend on the processing

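The report's settings gave 7 member genes higher in 10A/143B, 4 lower, 12 probe sets higher and 5 lower. None of these 11 genes changed sign under any setting tried; of the genes of the other lists that passed, PARVB (-0.19), PTK2 (-0.15) and CD44 (-0.28) turned below 0 with the mean of their probe sets and MSX2 (0.12) above 0 without _x_at or _s_at probe sets. Member genes higher numbered 12 with the replicate block on 6 separate arrays, 4 without the intensity trend and 4 when all probe sets of a gene were averaged; the shares of all genes higher moved the same way, to 21.3%, 10.7% and 9.46%, against 13.8% in the report. Member genes lower numbered 1 without the intensity trend, where 5.6% of all genes were lower, against 8.9%. Leaving out replicate 2 or 3 of a cybrid gave 6 to 7 genes higher and 2 to 4 lower, the 2 without replicate 2 of 10A/143B. Of all genes, 13.1% to 13.5% were higher and 8.21% to 8.66% lower in these fits. Leaving out replicate 1 left 1 sample of that cybrid against 2 of the other. Fewer of all genes then passed in both directions, so the counts of those fits are not given.

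Probe sets higher numbered 20 with the replicate block on 6 separate arrays, where 19.7% of all were higher. With replicate 2 or 3 of a cybrid left out they numbered 11 to 12, against 10.9% to 11.3% of all. Probe sets lower numbered 8 with the replicate block on the averaged samples, 12 with the replicate block on 6 separate arrays and 10 with 6 separate arrays. The shares of all probe sets lower were 9.23%, 13.8% and 12.4%. They numbered 8 with median centring, 9 with the length trend removed, 2 without the intensity trend and 2 without _x_at or _s_at probe sets. The shares here were 7.94%, 6.77%, 4.13% and 4.91%. With replicate 2 or 3 of a cybrid left out they numbered 4 to 5, against 5.69% to 5.94% of all. With replicates 2 and 3 averaged, the replicate block changed no call of a member gene other than ITGA3 and ITGB5.

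Over all genes, 60.8% of the calls were higher in 10A/143B, 49.9% with quantile normalization and 51.2% with median centring; the median of all genes was -0.02, -0.08 and -0.11 in these fits, and the members called higher numbered 5 and 6 in the last 2. The causes of these shifts were not tested. The array count and the unknown background limit what can be said of dim chains such as ITGB2 and ITGB8, whose levels were under 70 on all arrays.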
